A study of Mus musculus with 12 samples.

Results

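RNA of thymocytes was compared between the single-positive and the double-positive stage in mice that carried a transgenic T cell receptor together with HEL, called TCR:HEL. The comparison used 6 of the 12 arrays of the study, 3 of single-positive and 3 of double-positive TCR:HEL cells, chosen by their sample titles, and covered 22511 probe sets that were not controls. All mice were on the B10 background, were 6 to 8 weeks old and were untreated, and by the sample titles every one carried the receptor transgene. The design text of the series names one kind of mouse only as B10, without that transgene, and the titles were followed. The other 6 arrays, from mice with the receptor alone (called TCR), were 3 of each stage and helped to estimate the spread. The labels describe the TCR:HEL single-positive cells as CD4+ cells undergoing negative selection, the TCR single-positive cells as positively selected, and double-positive cells as the stage before selection. HEL in this model is hen egg lysozyme, the antigen that the receptor recognises. The promoters of the transgenes, and the share of cells that carried the transgenic receptor, are not given in the sources used here. The study design calls the replicates biological.

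Thymocytes pass through a stage at which they carry both CD4 and CD8 and test a newly made receptor against the peptides shown in the thymus. A weak signal lets a cell become CD4 or CD8 single-positive, which is positive selection. A strong signal from a self antigen leads to death, to lasting unresponsiveness or to the regulatory T cell lineage, which are the outcomes grouped as negative selection or tolerance. Signals through the receptor quickly switch on immediate early transcription factors such as the Nr4a and Egr families. Many double-positive cells have recently divided, and single-positive cells divide little.

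Signals were MAS5 intensities on a linear scale, and fold changes are differences of log2(signal + 16), single-positive minus double-positive, which understate the change of genes with low signal. The arrays had Pearson correlations of log2 signals of 0.842 to 0.884 within the TCR:HEL single-positive group and of 0.868 to 0.892 within the double-positive group. The first principal component held 25.8% of the variance and placed the single-positive arrays at -30.3, -18.9 and -43.0 and the double-positive arrays at 27.0, 39.0 and 17.6. Single-positive replicate 1 stood apart on component 4, at 58.0, and its Gapdh 5' to 3' signal ratio, which falls when RNA is degraded, was 0.0856 against 0.195 to 0.453 on the other TCR:HEL arrays. The same ratio for actin was 0.376 on that array, within the 0.169 to 0.535 of the others, and was lowest on double-positive replicate 1. Single-positive replicate 1 was also the only TCR:HEL array of the earliest of 3 hybridization periods. Double-positive replicates 1 and 2 lay in period 2, and double-positive replicate 3 lay in period 3 with single-positive replicates 2 and 3. Stage and period were thus only partly separable, and results are also given with a period block. Cd8a, which the labelled double-positive stage carries, had signals of 986, 1558 and 810 on the single-positive arrays, in the order of replicates 1 to 3, and of 5531, 5188 and 6118 on the double-positive arrays. Of 32 genes chosen to check stage and signalling, 15 were measured, and Cd4, Rag1, Rag2, Ccr7, Zbtb7b and Foxp3 were among those not analysed here. The Cd4 label of the single-positive cells could therefore not be checked on its own gene.

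Between the stages 271 of 13703 probe sets passed an adjusted p of 0.05 in limma (1.98%), 120 higher in single-positive cells (0.876%) and 151 lower (1.1%). Such probe sets are termed called. Of those called higher, 12 passed the filter on low signals only with the TCR:HEL single-positive arrays, where they were high, and had to differ. Trpm1, Fosl2, Nr4a2, Crispld2, Osbp2 and Nrp2 are among them, and their stage change is given with the adjusted p of the fit without that filter, in which 11 of the 12 were called. None of those called lower passed the filter through the double-positive arrays alone. All 271 had groups that did not overlap, beside 2555 of all probe sets tested (18.6%), of which 1339 were higher (9.77%) and 1216 lower (8.87%). The median log2 fold change was 1.92 for those called higher, -1.78 for those called lower and 0.03 over all probe sets. The called probe sets held 74 named genes that were higher and 115 that were lower, while 30 and 16 called probe sets had no single symbol. Read from 1 probe set each, as in the gene lists below, 71 of 6663 genes were called higher and 111 lower. Counts of called list members stand beside that background. The nuclear receptor Nr4a3 and the channel gene Trpm1 rose by the largest folds among named genes, and 35 genes of the cell cycle lists were called lower. In these bulk samples a smaller share of dividing cells and less RNA per cell cannot be told apart. Calls numbered 118 without double-positive replicate 2, 175 without double-positive replicate 3, 173 without single-positive replicate 1 and 153 without single-positive replicate 3. With a period block 202 were called, 142 of them among the 271. On the pair hybridized on the same day, single-positive replicate 2 and double-positive replicate 3, the median change was 2.08 for the probe sets called higher and -1.40 for those called lower. These 2 arrays are part of the test, and since no called group overlapped, the signs on this pair were fixed.

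**Figure D1:**
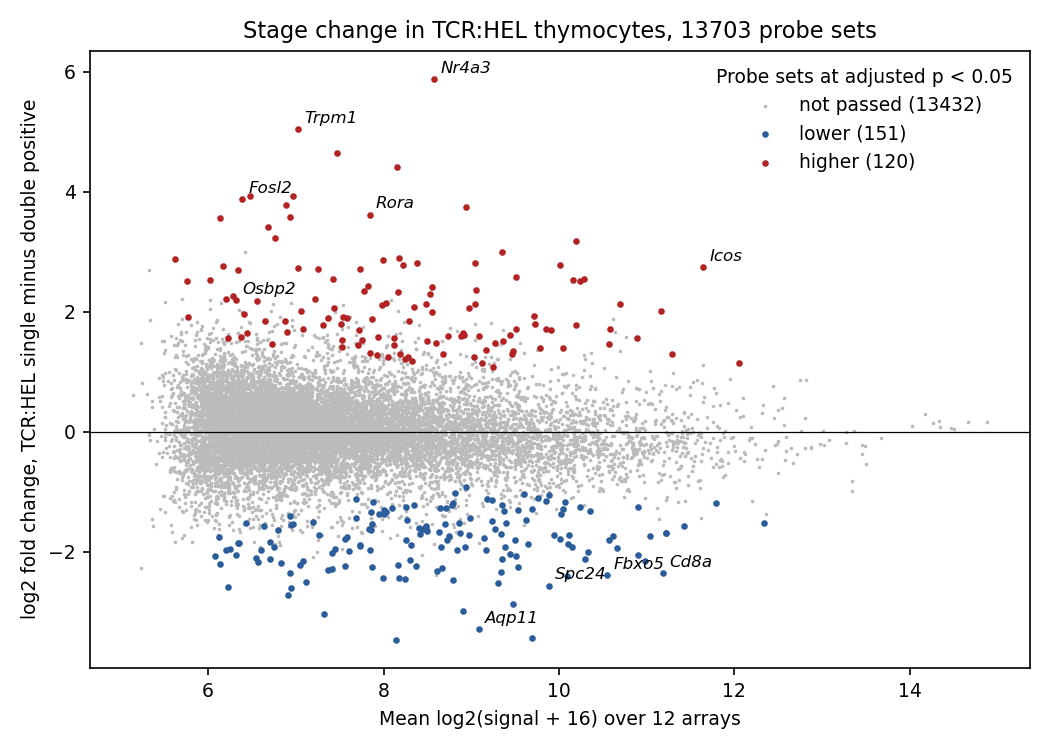
Each point is 1 of 13703 probe sets, with the mean log2(signal + 16) over 12 arrays on the x axis and the log2 fold change between the TCR:HEL stages on the y axis. Red points (120) were called higher in single-positive cells and blue points (151) lower. Nr4a3 lies highest at 5.88, and Aqp11 and Cd8a lie among the lower points at -3.29 and -2.36.

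Among transcription factors that receptor signals induce, Nr4a3 showed the highest change of any named gene. Nr4a3 encodes an orphan nuclear receptor linked to thymocyte death. Its signal was 6865, 4549 and 3315 on the single-positive arrays and 142, 43.3 and 38.6 on the double-positive arrays. The lowest single-positive array was thus far above the highest double-positive array. The change was 5.88 ± 0.44 (log2 fold change ± SE, adjusted p = 1.19e-05 in limma). On double-positive replicates 2 and 3 the signal was below the array median, so the size of the fold is rough. Fosl2, a Fos-family subunit of the AP-1 factor, had 550, 396 and 297 on the single-positive arrays against 30.1, 5.44 and 7.46. All its single-positive values lay above the double-positive ones, with a change of 3.87 ± 0.50 (adjusted p = 0.00168 in limma without the filter), and the low double-positive signals make the fold imprecise. Egr3, a zinc finger factor of the early response, had 718, 781 and 529 against 89.9, 109 and 47.4. It rose by 2.86 ± 0.40 (adjusted p = 0.00125, limma). Nr4a2, a relative of Nr4a3, had 815, 219 and 365 against 38.0, 6.99 and 19.9 on one probe set, a change of 3.57 ± 0.51 (adjusted p = 0.00264 in limma without the filter). That probe set was below the array median on all 9 arrays outside the TCR:HEL single-positive group. Its other probe sets disagreed, at 1.43 and -0.84, and neither passed.

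The Ikaros-family members Ikzf4 (Eos) and Ikzf2 (Helios), zinc finger factors also found in regulatory T cells, were higher as well. Ikzf4 had signals of 696, 859 and 694 on the single-positive arrays against 88.4, 109 and 90.6, which differed by 2.77 ± 0.28 (adjusted p = 0.000103, limma). Ikzf2 was abundant in both stages, with 7052, 5335 and 6204 against 3307, 2367 and 1988, and rose by 1.30 ± 0.26 (adjusted p = 0.0142, limma). A second Ikzf2 probe set was also called, at 3.00. The first did not pass under 5 of 23 alternatives, where the adjusted p reached 0.086. Of 12 receptor-induced factors measured, 5 were called higher and none lower, with a median log2 fold change of 1.03, and Tox, Tox2, Hivep3, Nfatc1, Tnfaip3, Jund and the listed probe set of Nr4a2 did not pass. Fosl2, among the 5 called, passed the filter only with the TCR:HEL single-positive arrays, where it was high, and had to differ. Without single-positive replicate 1, 4 of the 12 were called and the median was 0.77.

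**Figure D2:**
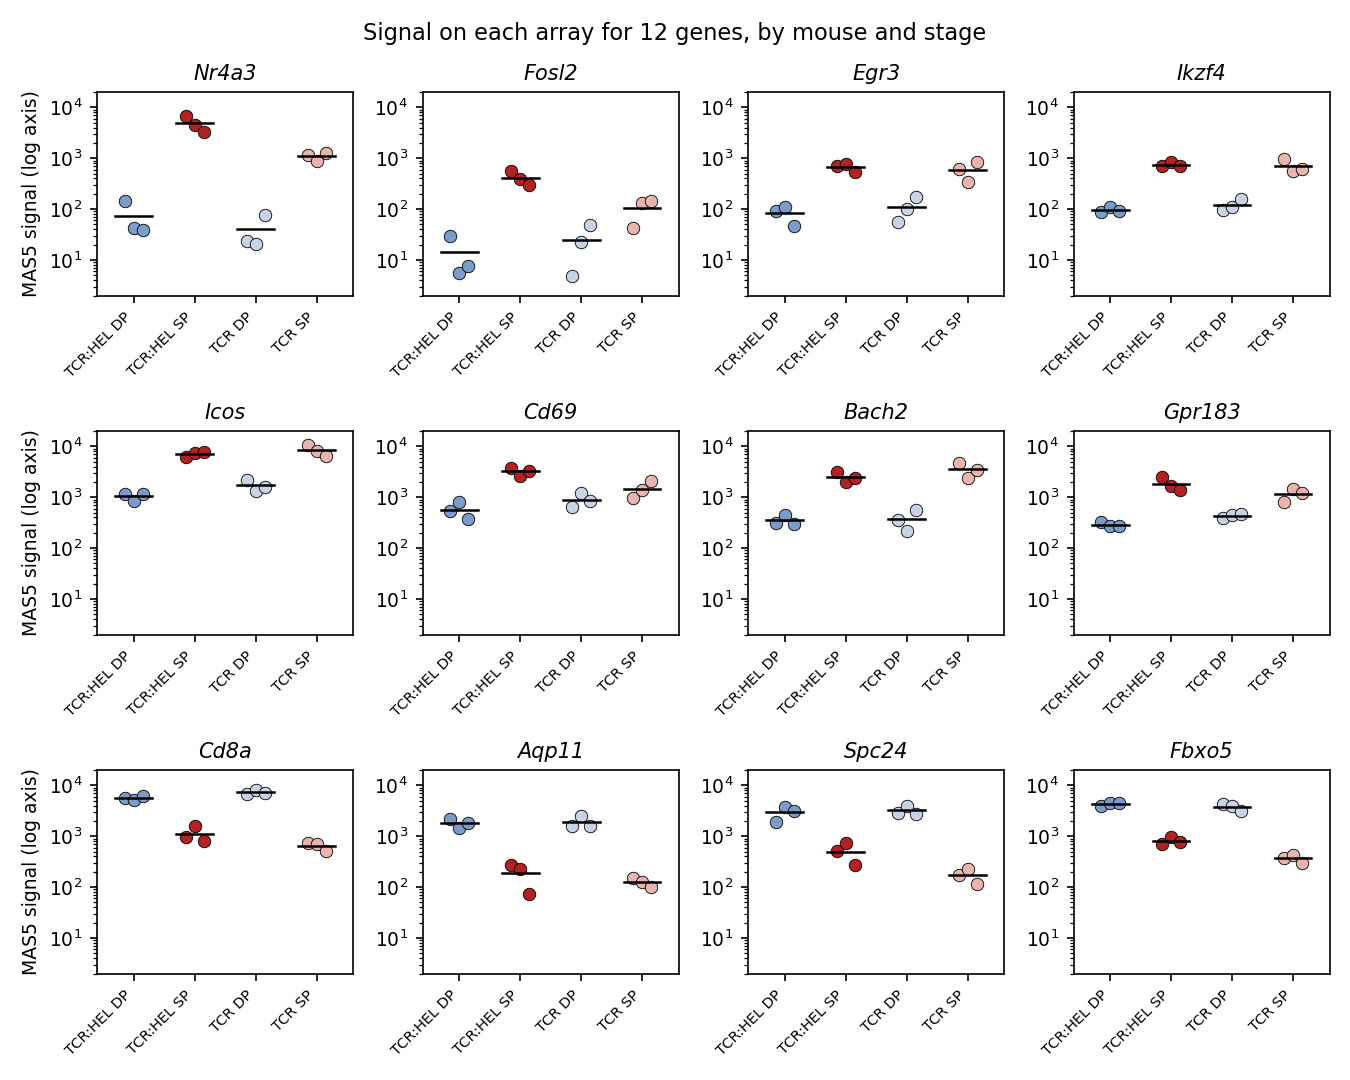
Each panel shows 1 gene, with the MAS5 signal of each array on a logarithmic y axis and the 4 groups on the x axis (DP, double-positive, and SP, single-positive); points are arrays and lines are group means. In TCR:HEL cells Nr4a3, Fosl2, Egr3, Ikzf4, Icos, Cd69, Bach2 and Gpr183 lie higher on every single-positive array, and Cd8a, Aqp11, Spc24 and Fbxo5 lie lower.

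Beside 71 higher and 111 lower of 6663 genes with 1 probe set each, none of 25 proximal signalling genes was called. Their count is thus near that of the background. Their median was -0.06, and the values nearest the threshold were those of Nck2, an adaptor, at -1.34 (adjusted p = 0.0689) and the phosphatase Ptprc (CD45) at 1.79 (adjusted p = 0.124), both from limma. Of 21 feedback regulators 1 was called, the MAP kinase phosphatase Dusp5. Its signals were 1415, 938 and 872 on the single-positive arrays against 193, 375 and 497, a change of 1.62 ± 0.35 (adjusted p = 0.0251, limma). With a period block it was 1.17 and no longer passed (adjusted p = 0.172), nor did it pass without double-positive replicate 1 or 2 or without any 1 of the 3 single-positive arrays. Its relative Dusp4 was at 0.89 and did not pass (adjusted p = 0.16, limma). Among 16 NF-kB pathway genes 14 were above 0, and the median was 0.61, but only Nfkbid was called. Nfkbid encodes a nuclear IkB protein that receptor signals induce. It had 3936, 6900 and 2839 against 365, 692 and 376, and rose by 3.18 ± 0.39 (adjusted p = 0.000528, limma). Nfkbia and Nfkbiz, other inducible members of the family, were at 0.86 and 1.03 and did not pass.

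In the calcium and NFAT group 1 of 21 genes was called, the cation channel gene Trpm1, known mainly from the retina and pigment cells. Its signals were 1410, 1554 and 1016 in single-positive cells against 30.7, 19.6 and 22.5, so the gap between groups spanned more than the range within either. The change was 5.05 ± 0.41 (adjusted p = 0.000108 in limma without the filter). Trpm1 passed that filter only with the TCR:HEL single-positive arrays. A dimmer second Trpm1 probe set was at -0.62 and did not pass, so the probe sets disagree. The other 20 genes of this group, such as Nfatc1 at 0.10 and Stim2 at 0.25, did not pass.

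Of 8 costimulatory and inhibitory receptors measured, 3 were called higher and 5 did not pass, 2 of them below 0, and the median was 1.40. Icos, a costimulatory receptor of the CD28 family, had 6237, 7269 and 7693 on the single-positive arrays against 1149, 860 and 1141, and rose by 2.74 ± 0.27 (adjusted p = 0.000103, limma). Cd69, an early activation marker that holds cells in the thymus, had 3727, 2606 and 3284 against 538, 790 and 369. It rose by 2.52 ± 0.35 (adjusted p = 0.00119, limma). Btla, an inhibitory receptor, had 4842, 5733 and 4137 against 1492, 1096 and 1023, a change of 2.02 ± 0.29 (adjusted p = 0.00153, limma). The single-positive arrays stood above all double-positive arrays for each of these 3 genes. Cd44, an adhesion receptor, and Itgb3, the integrin beta 3 chain, were at 1.13 and 1.67 and did not pass (adjusted p = 0.0683 and 0.0664, limma).

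Among 27 genes of mature single-positive cells and of exit from the thymus, 6 were called higher and none lower, with a median of 0.47. Bach2, a repressor that restrains effector programmes, had 3187, 2013 and 2409 against 316, 445 and 297 and rose by 2.79 ± 0.35 (adjusted p = 0.000528, limma). Gpr183, a receptor for oxysterols that guides migration, had 2506, 1693 and 1373 against 329, 275 and 269, a change of 2.57 ± 0.28 (adjusted p = 0.000198, limma). Gpr18, another G protein-coupled receptor, had 2982, 2997 and 1566 against 669, 486 and 475 and rose by 2.13. Dapl1 rose by 2.21 from signals of 4.47 to 21.4, and Tgfbr3, a TGF-beta co-receptor, by 1.51. Gimap8, of a family of GTPases of lymphocytes, rose by 1.15, but passed under 11 of 23 alternatives only, and Tgfbr3 under 17. The other Gimap genes, Gimap5, Gimap6, Gimap7 and Gimap9, lay between -0.09 and 0.81 and did not pass. The group had 4 calls without double-positive replicate 2 or 3, or without single-positive replicate 2 or 3, and 4 with a period block.

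The T lineage transcription factors were mostly not called. Of 19 measured 2 rose, Bach2 and Rora, and the median was -0.24. Rora, a nuclear receptor, had 1101, 984 and 1027 on the single-positive arrays against 126, 66.2 and 37.6, and rose by 3.62 ± 0.36 (adjusted p = 0.000103, limma). Of its 4 other probe sets 3 were called higher, at 1.90, 3.94 and 2.15, and 1 was at -0.19. Runx3, Tox and Runx1 were at -0.27, -0.24 and -1.15 and did not pass.

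Of 15 genes known from regulatory T cells 5 were called higher and 1 lower, with a median of 0.56 (all 6663 genes: 71 and 111). Those higher were Ikzf2, Ikzf4, Gpr83, Niban1 and Arhgap20. Gpr83, a G protein-coupled receptor, had 647, 652 and 712 against 187, 185 and 108 and rose by 2.00 ± 0.35 (adjusted p = 0.00632, limma). Niban1, a stress-induced protein linked to cell survival, had 1269, 1283 and 1110 against 190, 130 and 136 and rose by 2.89 ± 0.29 (adjusted p = 0.000103, limma). Arhgap20, a GTPase activating protein, had 658, 541 and 639 against 33.2, 54.5 and 24.9, and rose by 3.59. Nrp1 (neuropilin 1), which is high in regulatory T cells that arise in the thymus, went the other way. It had 168, 216 and 224 in single-positive cells against 622, 584 and 756, and fell by 1.62 on the log2 scale (adjusted p = 0.00939, limma), although without single-positive replicate 1 it no longer passed (adjusted p = 0.0506). Its relative Nrp2 was at 2.51 (adjusted p = 0.00498 in limma without the filter), on signals of 296, 139 and 111 against 21.2, 16.4 and 11.7, while a second probe set was at 1.34 and did not pass. The first lost its call with a period block (adjusted p = 0.0699) and without single-positive replicate 1 (adjusted p = 0.0911), and it was below the array median on all 9 arrays outside the TCR:HEL single-positive group. Itgae, Nt5e and Capg of this list did not pass, and Foxp3 was not analysed here.

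Few genes of apoptosis were measured, 10 of 62 pro-apoptotic and 14 of 41 anti-apoptotic list genes. Bcl2l11 and Nr4a1 were not analysed here. The measured genes were largely not called. Of 10 pro-apoptotic genes only Nr4a3 was, and the initiator caspase Casp9 was at -0.94, the BH3-only genes Bmf and Hrk at 0.05 and 0.53, and the kinase Stk17b at 1.24 (adjusted p = 0.466, limma). Of 14 anti-apoptotic genes only Niban1 was called. Bcl2 had 2135, 1405 and 2004 against 1216, 645 and 1052, and did not pass at 0.94 ± 0.35 (adjusted p = 0.235, limma), although its groups did not overlap. Its 3 other probe sets were at 0.66, 1.53 and 0.77, and did not pass.

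**Figure D3:**
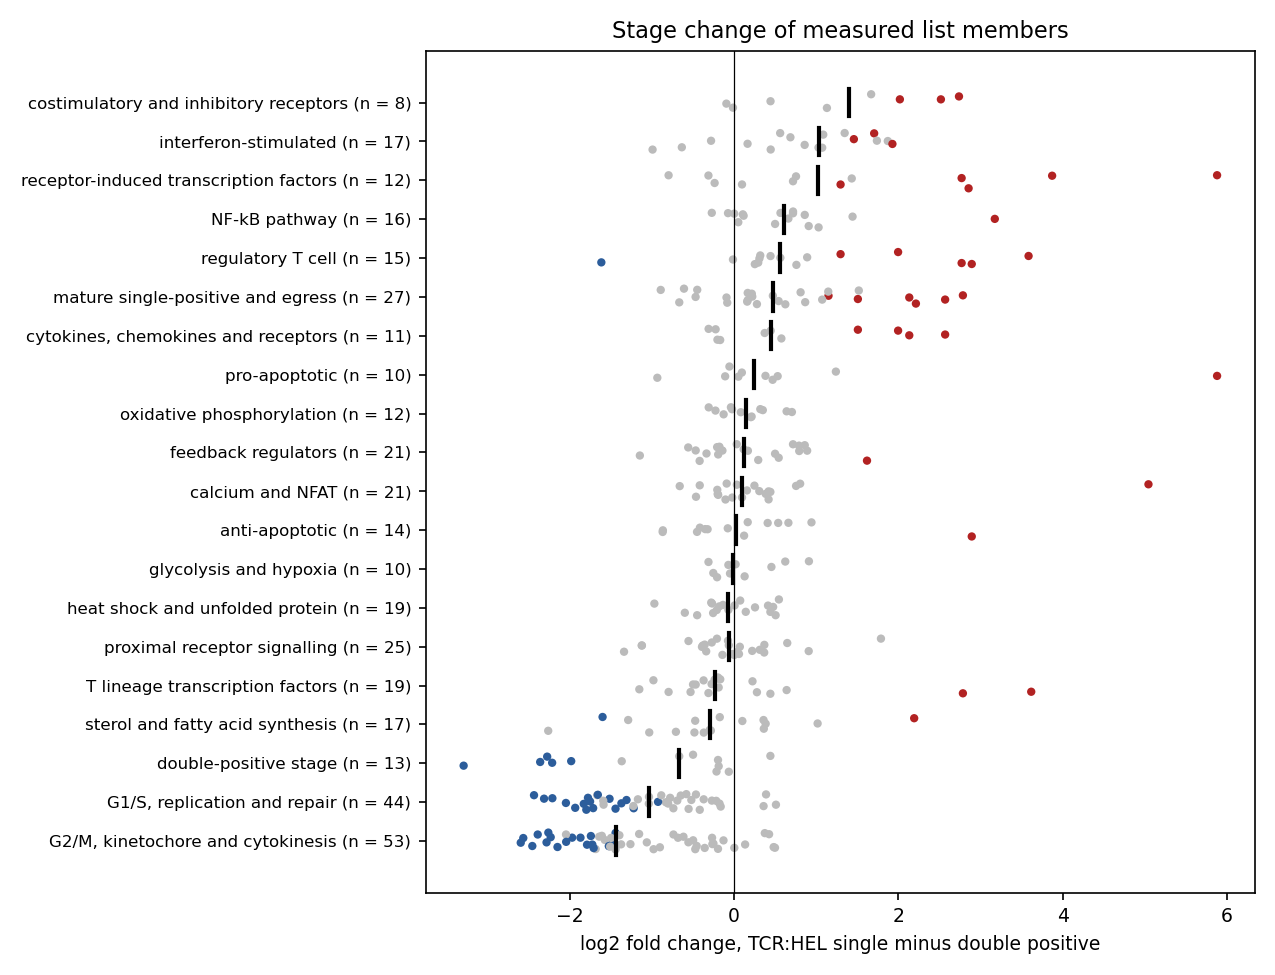
Each point is 1 measured gene of a list, placed by its log2 fold change between the TCR:HEL stages on the x axis, with lists ordered by their median (black bar); red and blue points were called higher and lower. The lists of costimulatory receptors and receptor-induced factors lie to the right with medians of 1.40 and 1.03, and the G1/S and G2/M lists lie to the left with medians of -1.04 and -1.44.

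Other named genes with the highest changes had less familiar roles in thymocytes. Acoxl, which resembles peroxisomal acyl-CoA oxidases, had 559, 307 and 305 on the single-positive arrays against 13.3, 8.69 and 15.4 and rose by 3.79. Crispld2, a secreted protein with an LCCL domain, had 934, 542 and 641 against 28.1, 29.98 and 124 and rose by 3.42. Lmna, which encodes the A-type lamins of the nuclear envelope, had 622, 358 and 480 against 30.6, 47.4 and 33.0 and rose by 3.22. The adjusted p was 0.000114 for Acoxl and 0.000242 for Lmna in limma, and 0.00142 for Crispld2 without the filter, and no array of one stage reached the range of the other. A second Crispld2 probe set was also called, at 2.06, and another, at 1.48, did not pass (adjusted p = 0.229, limma).

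Of 13 genes of the double-positive stage 5 were called lower and 8 did not pass, with 12 of the 13 below 0 and a median of -0.67. Aqp11, an intracellular aquaporin, had 278, 228 and 73.0 in single-positive cells against 2149, 1478 and 1848, and fell by 3.29 on the log2 scale (SE 0.38, adjusted p = 0.000315, limma), while its other probe sets were at -1.64, called, and -0.64, not passed. Cd8a fell by 2.36 on the log2 scale (SE 0.27, adjusted p = 0.000242, limma). A second Cd8a probe set was called at -2.40 and another, at -0.86, did not pass. Dgkeos, an antisense gene of Dgke, was called lower at -2.28, Pde5a, a cyclic GMP phosphodiesterase, at -1.98, and Ets2, an ETS-family factor, at -2.22. Ets2 had 46.0, 222 and 38.2 against 339, 615 and 341, no longer passed with a period block (adjusted p = 0.158), and its second probe set was at 0.10. Leaving out single-positive replicate 3 left 3 calls in this group. Themis, Satb1, Bcl11b and Tcf12, also of this list, lay between -0.20 and 0.44 and did not pass.

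Of 44 genes of the G1/S phase, replication and repair 17 were called lower and none higher, 41 were below 0 and the median was -1.04. Of 53 genes of the G2/M phase, kinetochore and cytokinesis 18 were called lower and none higher, 47 were below 0 and the median was -1.44. The median log2(signal + 16) of the G2/M genes was 7.61, 7.85 and 7.61 on the single-positive arrays against 8.70, 8.85 and 8.87, and that of the G1/S genes 7.86, 7.71 and 7.61 against 8.91, 8.41 and 8.58. The stages did not overlap in either level. The number of calls moved more than the medians when an array was left out. The G1/S calls went to 10, 4 and 7 without double-positive replicates 1, 2 and 3, and to 7, 9 and 7 without single-positive replicates 1, 2 and 3, and the median stayed between -1.17 and -0.94 with any 1 array left out. The G2/M calls went to 9 without double-positive replicate 2, and to 10 without single-positive replicate 1 and to 10 without single-positive replicate 3, and the median stayed between -1.45 and -1.24 with any 1 array left out. With a period block 8 and 12 genes were called, with medians of -1.05 and -1.08.

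**Figure D4:**
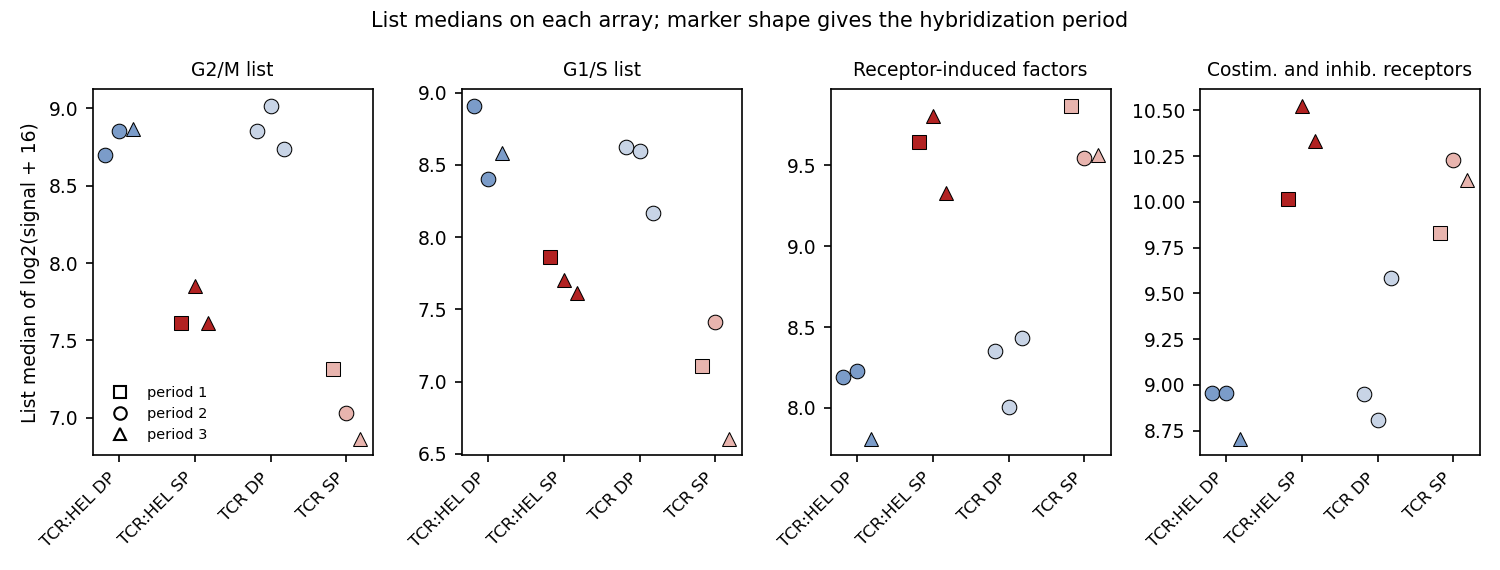
Each panel gives the median log2(signal + 16) of 1 gene list on each array (y axis) by group (x axis), with squares, circles and triangles for hybridization periods 1, 2 and 3. The TCR:HEL single-positive arrays lie below the double-positive arrays for both cell cycle lists (7.61 to 7.86 against 8.41 to 8.91) and above them for receptor-induced factors (9.33 to 9.81 against 7.81 to 8.23) and for costimulatory and inhibitory receptors (10.02 to 10.5 against 8.70 to 8.96).

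Promoters of 4 genes that fell are shown because regulators of the late cell cycle are known to act through short elements near the start site, the CHR element (TTTGAA) and the CCAAT box, and S-phase genes through E2F sites. They are those with the most negative changes among fallen cell cycle genes that hold TTTGAA and were not on an excluded chromosome. Each runs 5' to 3' on the gene's own strand from 250 bases before to 50 after the RefSeq start (GRCm38.p6), with CHR and CCAAT matches on either strand in capitals, so a CHR match on the opposite strand reads TTCAAA and a CCAAT match there reads ATTGG. Fbxo5 lies at chr10:5805416-5805715 on the minus strand, Ccnf at chr17:24251360-24251659 on the minus strand, Bub1b at chr2:118597961-118598260 on the plus strand and Espl1 at chr15:102296043-102296342 on the plus strand.
Fbxo5: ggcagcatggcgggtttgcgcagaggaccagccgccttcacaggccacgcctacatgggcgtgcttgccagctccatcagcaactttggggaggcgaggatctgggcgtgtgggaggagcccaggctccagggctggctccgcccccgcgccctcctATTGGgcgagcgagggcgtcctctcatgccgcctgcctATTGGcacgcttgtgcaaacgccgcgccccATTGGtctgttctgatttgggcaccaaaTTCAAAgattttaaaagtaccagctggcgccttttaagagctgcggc
Ccnf: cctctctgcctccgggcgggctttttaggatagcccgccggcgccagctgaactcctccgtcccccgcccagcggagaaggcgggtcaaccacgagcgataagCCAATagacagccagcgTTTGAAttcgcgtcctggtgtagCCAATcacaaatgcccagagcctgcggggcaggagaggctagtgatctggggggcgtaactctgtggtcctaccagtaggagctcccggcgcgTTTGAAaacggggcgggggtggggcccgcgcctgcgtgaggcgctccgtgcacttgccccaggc
Bub1b: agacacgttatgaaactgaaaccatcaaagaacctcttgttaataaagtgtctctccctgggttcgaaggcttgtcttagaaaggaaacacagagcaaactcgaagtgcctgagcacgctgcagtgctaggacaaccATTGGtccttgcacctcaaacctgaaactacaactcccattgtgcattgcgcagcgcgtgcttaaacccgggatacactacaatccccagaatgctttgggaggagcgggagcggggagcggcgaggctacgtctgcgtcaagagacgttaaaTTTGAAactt
Espl1: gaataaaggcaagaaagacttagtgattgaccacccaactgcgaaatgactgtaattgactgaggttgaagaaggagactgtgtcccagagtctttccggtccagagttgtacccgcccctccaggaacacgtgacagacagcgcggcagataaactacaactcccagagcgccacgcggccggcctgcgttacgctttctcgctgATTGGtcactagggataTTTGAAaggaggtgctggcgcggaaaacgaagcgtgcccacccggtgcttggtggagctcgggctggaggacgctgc
Fbxo5 held 1 CHR and 3 CCAAT matches, Ccnf 2 and 2, and Bub1b and Espl1 1 of each. Of 35 cell cycle genes that fell, 27 matched a promoter table entry, with 30 promoters. TTTGAA was in 12 of these (40.0%) beside 17.9% of all 32851 promoters in the table, and CCAAT in 22 (73.3%) beside 37.4%. Of 3 E2F-like motifs, searched on both strands like the others, TTTCGCG was in 4 promoters (13.3%) beside 0.849% of all. The variant TTTGGCG was in 6 (20.0%) beside 1.57%, and the variant TTTCCCG in 5 (16.7%) beside 3.39%. At least 1 of the 3 was in 11 (36.7%) beside 5.58%. These shares describe letters, were not tested, and say nothing of binding.

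The genes of these promoters and their neighbours in the lists act at successive steps. Fbxo5 (Emi1), which restrains the anaphase-promoting complex, had 706, 975 and 761 on the single-positive arrays against 4011, 4502 and 4406, and fell by 2.39 on the log2 scale (SE 0.24, adjusted p = 0.000103, limma). Ccnf, cyclin F, had 84.5, 74.6 and 89.5 against 314, 623 and 511 and fell by 2.28. Both stages were clear of each other in these genes. Bub1b, the spindle checkpoint kinase BubR1, had 1622, 1927 and 704 against 6208, 7279 and 4405, and fell by 2.15 on the log2 scale (SE 0.51, adjusted p = 0.0401, limma). It passed under 10 of 23 alternatives, with an adjusted p of up to 0.19, and its dim second probe set was at 0.16. Espl1, the separase that parts sister chromatids, had 397, 392 and 241 against 847, 2290 and 1302, fell by 1.97, and passed under 20 of 23. It no longer passed without double-positive replicate 2 (adjusted p = 0.115) or single-positive replicate 3 (adjusted p = 0.104).

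At the kinetochore Spc24, a subunit of the Ndc80 complex, had 501, 731 and 269 against 1931, 3816 and 3061, and fell by 2.57 on the log2 scale (SE 0.37, adjusted p = 0.00142, limma). The centromere genes Cenpi and Cenpp were called lower at -2.60 and -2.46, and the centrosome kinase Nek2 at -2.26. The other probe sets of Cenpp were at -2.03, called, and -1.25, and those of Nek2 at -1.98, called, and 0.10. Cdca8 (borealin), of the chromosomal passenger complex, had 1319, 2085 and 1019 against 5804, 5455 and 6489 and fell by 2.05, although its brighter probe set, at -1.38, did not pass (adjusted p = 0.08, limma). In the G1/S group Ticrr, which starts replication forks, fell by 2.44 and passed under 16 of 23 alternatives, and a second probe set, at -1.04, did not pass. The repressor E2f7 was called lower at -2.31, cyclin E1 (Ccne1) at -1.80, the checkpoint adaptor Clspn at -1.78 and the histone mRNA binding protein Slbp at -1.66. Slbp had 234, 130 and 209 against 658, 612 and 598. None of 6 cell cycle inhibitors was called, and E2f5, Btg1 and Lin54 were at 0.98, 0.91 and -1.01.

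Outside the cell cycle Gfra1, a receptor for the growth factor GDNF, had 292, 384 and 275 against 1549, 2065 and 2049 and fell by 2.52 on the log2 scale (adjusted p = 0.000823, limma). Tmem107, a protein of the ciliary transition zone, was called lower at -2.98, the mitochondrial alanyl-tRNA synthetase Aars2 at -2.73, the GTPase activating protein Arhgap19 at -2.48 and Tube1, epsilon-tubulin, at -2.44. The second Arhgap19 probe set was at 0.09, and the other 2 of Tube1 were at -0.64 and -1.01, and none of these passed. For Tmem107 a second probe set was called, at -2.36, and another, at -0.99, did not pass. Kdsr, an enzyme of sphingolipid synthesis, fell by 2.51, but its other probe sets were at 0.22 and -0.17. A direction for Kdsr thus rests on 1 probe set of 3.

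Genes that interferon induces were above 0 in 14 of 17 cases, with a median of 1.03, and 3 were called higher. Nlrc5, an activator of MHC class I genes, had 1553, 1968 and 1143 against 327, 542 and 326, and rose by 1.93 ± 0.33 (adjusted p = 0.00491, limma). Xaf1 was at 1.71 and Eif2ak2 (PKR) at 1.46, with adjusted p of 0.0257 and 0.0456 in limma. Xaf1 passed under 16 of 23 alternatives and not with a period block (adjusted p = 0.0564). Eif2ak2 passed under 6 of 23, and not after quantile normalization (adjusted p = 0.0646) or without the filter (adjusted p = 0.0867). A second Xaf1 probe set was at 0.15 and did not pass. Without single-positive replicate 1 or 2, or double-positive replicate 2 or 3, 1 gene of the group was called, and 2 were without single-positive replicate 3 or without TCR double-positive replicate 2 or 3. Without TCR single-positive replicate 1, 5 were called.

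Metabolic and stress genes are given beside the 71 of 6663 genes called higher and the 111 called lower, with 1 probe set each. Of 17 genes of sterol and fatty acid synthesis Osbp2 was higher and Insig1, which restrains sterol synthesis, was lower, with 214, 204 and 218 against 701, 800 and 550. Osbp2 passed the filter only with the TCR:HEL single-positive arrays. Insig1 fell by 1.60 on the log2 scale (adjusted p = 0.0157, limma) and passed under 15 of 23 alternatives. With a period block it was at -1.16 and no longer passed (adjusted p = 0.124). None of 12 oxidative phosphorylation genes, 10 glycolysis genes or 19 heat shock and unfolded protein genes was called, with medians of 0.14, -0.02 and -0.07.

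Markers of other cells were measured in part. None of 7 B cell markers was called, but their summed signal was 637 to 985 on the single-positive arrays against 1115 to 1796 on the double-positive arrays, so that the ranges did not overlap. None of 5 dendritic cell and macrophage markers (854 to 1750 against 905 to 1959), of 3 markers of NK, NKT and gamma-delta cells (160 to 263 against 161 to 249) or of 5 stromal markers (1644 to 1989 against 1620 to 3418) was called. The 4 double-negative markers summed to 1072 to 1197 against 626 to 747, and none was called. Most of that gap was Cd44, with mean signals of 740 against 331. The others, Bcl11a, Dtx1 and Meis1, changed by 0.61, -0.03 and -0.001. Of 6 markers of CD8 single-positive cells Dapl1 was called higher and Cd8a lower. Itgb3 was the one erythroid or platelet marker measured. The part of these cells in the results was not tested.

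The same stage change was also read in mice with the receptor alone, to compare the 2 kinds of mice. In TCR the double-positive arrays all lay in hybridization period 2, and the single-positive arrays in periods 1, 2 and 3. The kinds of mice thus differed in period as well as in antigen. In TCR 484 probe sets were called (3.53%), 153 higher (1.12%) and 331 lower (2.42%). Both changes shared 56 probe sets called higher, which are 46.7% of those in TCR:HEL and 36.6% of those in TCR, and 116 called lower, which are 76.8% and 35.05%. The difference between the stage changes, tested over arrays that the 2 changes do not share, was called for 1 probe set (0.0073%). Of 13703 tested, 609 had an unadjusted p under 0.05 in limma. That is a smaller share than the 0.05 expected when no probe set differs. The called probe set was Osbp2, an oxysterol-binding protein. In TCR:HEL it had 223, 187 and 170 in single-positive cells against 36.1, 26.1 and 26.9, a rise of 2.19 ± 0.35 (adjusted p = 0.00609 in limma without the filter). In TCR the mean signal was 25.4 in single-positive and 92.8 in double-positive cells, a fall of 1.34 on the log2 scale (adjusted p = 0.0486, limma). It was also the only probe set called in opposite directions in both mice. The difference of 3.53 had an adjusted p of 0.0487 in limma and passed under 3 of 21 alternatives, and not without the filter (adjusted p = 0.11).

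No other difference between the stage changes passed, and those with the smallest p or among named genes are given as values. Crispld2 changed by 3.42 in TCR:HEL and stood at -0.12 in TCR, a difference of 3.54. Niban1 was at 2.89 and 0.44, Ikzf2 at 1.30 and -0.92, and Cdca8 at -2.05 and -4.60. Each of these 4 differences had an adjusted p of 0.0715 in limma. Dusp4 was at 0.89 in TCR:HEL and at -1.39 in TCR (adjusted p of the difference 0.126, limma), and Trpm1 at 5.05 and 1.97 (0.194, limma). Acoxl was at 3.79 and 1.04 and Nrp2 at 2.51 and -0.82 (0.264 for each, limma), and Nr4a2 at 3.57 and 0.26 (0.38, limma). Crispld2, Trpm1, Nrp2 and Nr4a2 passed the filter on low signals only with the TCR:HEL single-positive arrays, where they were high. The differences on other probe sets were 1.66 and 1.25 for Crispld2, -0.71 for Trpm1, 0.63 for Nrp2, and 0.68 and -0.82 for Nr4a2. The other Ikzf2 probe set had a difference of 3.30 (adjusted p = 0.38, limma). Those of Cdca8 had 2.60 and 2.15 (adjusted p = 0.426 and 0.624, limma). None of these passed. Nr4a3 was at 5.88 and 4.42, Cd69 at 2.52 and 0.68, Icos at 2.74 and 2.31, and Bach2 at 2.79 and 3.21. Their differences were far from passing, with an adjusted p of 0.793 for Cd69 and 0.998 for the others (limma). The G2/M median was -1.44 in TCR:HEL and -2.18 in TCR, the G1/S median -1.04 and -1.37, and the median of receptor-induced factors 1.03 and 0.44. The receptor-induced factors include Fosl2, which passed the filter only with the TCR:HEL single-positive arrays. Their median log signal per array was 9.33 to 9.81 in TCR:HEL single-positive cells and 7.81 to 8.23 in TCR:HEL double-positive cells. In TCR it was 9.54 to 9.87 and 8.01 to 8.43, so the ranges of the mice overlapped at each stage. A difference between the mice in this list as a whole was not tested.

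**Figure D5:**
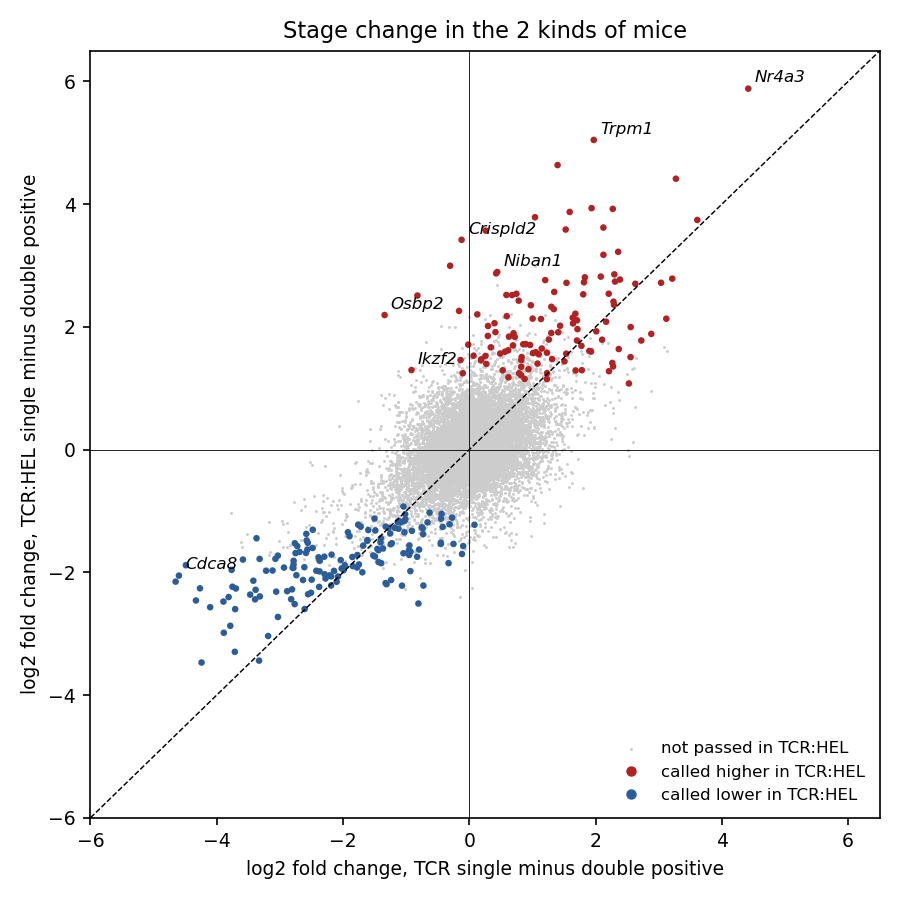
Each point is 1 probe set, with its log2 fold change between stages in TCR mice on the x axis and in TCR:HEL mice on the y axis; the dashed line marks equal change, and red and blue points were called higher and lower in TCR:HEL. Of the 271 called points 261 have the same sign in both mice, and Osbp2 lies at -1.34 and 2.19.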

How the data were processed

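RNA of sorted thymocytes was measured on 12 single-colour Affymetrix MOE430B arrays, 3 for each of 4 groups. Per the labels' protocols, RNA of 100000 to 1000000 cells was extracted with Trizol and RNeasy and labelled with biotin, using the manufacturer's protocol for small samples. The deposited table holds intensity values that the authors made with MAS5, per the submitters' processing notes. Every array had a 2% trimmed mean of 150, and this scaling was kept. Detection calls were not used here, and the array record files served only to find hybridization days.

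After 64 of 22575 probe sets were removed as controls, 13703 (60.9%) were kept, which exceeded the median signal of the array on 3 or more of the 12. The platform annotation gave 1 symbol to 9319, several to 149 and none to 4235. Groups came from the sample titles. Log2(signal + 16) was fitted with 4 group means over 12 arrays in limma 3.58.1 (R 4.3.3, empirical Bayes with trend, 8 residual degrees of freedom and 7.01 from the prior). Two-sided tests were used, with Benjamini-Hochberg adjustment over 13703 probe sets within each contrast. The script was tested on simulated data. A gene in a list was read from its probe set with the highest mean over all arrays. Genes were named by rule: the 12 highest and 12 lowest by fold change among called probe sets with 1 symbol and no overlap (by the brightest called probe set), in each of 29 lists the 4 members (or fewer) of lowest p, 32 check genes, and the 10 smallest p of the difference between stage changes. List members given by value alone, Nrp1, Ets2, Gimap8 and the promoter gene Espl1 among them, were chosen after their values were seen. Members, lists and tests were chosen with earlier results of these data known. Alternatives were other pseudocounts (1 and 64), filters, quantile normalization, no trend, the 6 TCR:HEL arrays alone, replicate and period blocks, and each array left out. The number of arrays limits the precision.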

Additional observations from a re-analysis of the deposited data

Results flagged for a closer look

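Osbp2 was called for the difference between the mice in its change from double-positive to single-positive cells: 3.53 on the log2 scale (adjusted p = 0.0487 in limma). Osbp2 passed the filter on low signals only with the TCR:HEL single-positive arrays, where it was high. Without the filter the difference did not pass (adjusted p = 0.11 in limma), and it passed under 3 of 21 alternatives. It was higher in single-positive cells in TCR:HEL (2.19) and lower in TCR (-1.34). Groups of 3 arrays were not screened for single outlying samples.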

How the results depend on the processing

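Beside the 271 probe sets called, 233 were called with a pseudocount of 1, 308 with 64, 253 without the filter, 260 with the filter on 6 arrays, 299 after quantile normalization, 334 with the 6 TCR:HEL arrays alone, 226 without the trend and 202 with the period as a block (221 with periods parted by gaps of over 30 days). Within period 3, where 1 double-positive and 2 single-positive TCR:HEL arrays remain, 303 were called, 119 of them among the 271; the spread there came from 1 residual degree of freedom and the prior, and the lone double-positive array was assumed to vary like the single-positive pair. With 1 array left out the number ran from 118 to 324, with 61 to 148 higher and 57 to 176 lower. The 324 were called without TCR single-positive replicate 1. The difference between stage changes, called for 1 probe set, was called for 4 with a pseudocount of 64 and for 0 with a pseudocount of 1, without the filter, with the filter on 6 arrays, after quantile normalization, with the replicate block, with the period block and without period 1; with 1 array left out it was called for 0 to 1.

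Replicate numbers of the stages correlated in their deviations at 0.0921, 0.105 and 0.202 in TCR:HEL, so not every pair was over 0.1 and the numbers were not taken as pairs, although each single-positive array correlated best with its own number, a hint from the data only. The replicate block gave 344 calls, 256 of them among the 271. Uncalled genes near 0 changed sign: Tox to 0.079 with either period block and to 0.50 within period 3, while with 1 array left out Runx3 ran from -0.45 to 0.030 and Itgae from -0.20 to 0.21, and the cause was not tested.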
